A study of Mus musculus with 8 samples.

Results

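Metallothioneins and zinc transporters were followed in BV-2 cells through 8 genes: the metallothioneins Mt1 and Mt2, the metal-sensing transcription factor Mtf1, the zinc exporters Slc30a1 and Slc30a4, and the zinc importers Slc39a1, Slc39a10 and Slc39a14. Their probes were found by matching the transcript name of each array probe to the gene, which gave 11 of the 55681 probes that were not controls. All 8 genes had a probe well above background and stood among the 22460 genes tested. BV-2 is a retrovirally immortalised line of mouse microglia, the macrophages that live in the brain. Cells received lipopolysaccharide (LPS, 1 µg/mL) together with the hexane-soluble fraction of Amauroderma rugosum, a mushroom (HF, 100 µg/mL), LPS alone, HF alone, or neither (control), and all groups were harvested after 24 h. Each group had 2 arrays, 8 in all. All groups grew in medium with serum and added insulin, and the line stands for microglia only as far as a transformed line can.

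Metallothioneins are small cysteine-rich proteins that bind zinc and copper and buffer the free zinc of the cell. MTF1 senses free zinc and turns on metallothionein genes and Slc30a1 through metal response elements in their promoters. SLC30 proteins move zinc out of the cytosol, across the surface membrane or into vesicles, and SLC39 proteins move it in. In macrophages, inflammatory signals are known to change the production of metallothioneins and zinc transporters.

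The promoters of the genes that passed a test below, Mt1 and Slc30a1, and of Mt2 are shown because they carry the metal response element cores through which MTF1 acts. Each window holds 300 bases and reaches shortly past the start of transcription (RefSeq, GRCm38.p6), and capitals mark each TGCACNC or TGCGCNC core, searched on both strands.
Mt1, chr8:94178839-94179138, plus strand: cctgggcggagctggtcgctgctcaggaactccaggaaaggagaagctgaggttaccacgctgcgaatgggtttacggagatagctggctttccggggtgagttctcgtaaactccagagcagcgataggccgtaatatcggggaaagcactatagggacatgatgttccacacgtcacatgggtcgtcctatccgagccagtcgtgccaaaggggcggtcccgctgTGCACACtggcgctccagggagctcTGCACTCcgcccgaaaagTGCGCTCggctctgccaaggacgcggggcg
Mt2, chr8:94172368-94172667, plus strand: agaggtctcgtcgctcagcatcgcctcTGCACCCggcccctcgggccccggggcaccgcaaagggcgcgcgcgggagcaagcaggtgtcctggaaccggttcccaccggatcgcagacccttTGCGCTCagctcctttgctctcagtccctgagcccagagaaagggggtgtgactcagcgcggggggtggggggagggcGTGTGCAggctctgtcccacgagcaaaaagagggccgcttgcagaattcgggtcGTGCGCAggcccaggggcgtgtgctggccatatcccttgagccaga
Slc30a1, chr1:191906531-191906830, plus strand: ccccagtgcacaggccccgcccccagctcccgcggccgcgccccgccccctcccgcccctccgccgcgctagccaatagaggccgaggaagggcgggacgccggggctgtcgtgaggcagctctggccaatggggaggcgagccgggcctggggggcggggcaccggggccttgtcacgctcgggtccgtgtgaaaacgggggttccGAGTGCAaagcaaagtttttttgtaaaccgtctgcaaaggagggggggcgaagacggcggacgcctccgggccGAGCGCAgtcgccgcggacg
Mt1 held 3 cores in this window and Mt2 held 4. Slc30a1 held 2, both on the opposite strand. Of 32851 mouse promoters of this length, 25.7% held at least 1 core, 7.11% at least 2, 1.97% at least 3 and 0.517% at least 4. Mt1 and Mt2 are neighbours on chromosome 8, with 0 annotated genes between them. The Slc30a4 promoter held 3 cores, and those of Mtf1, Slc39a1 and Slc39a10 (2 windows) held 0. The antioxidant element TGACNNNGC stood once each in the windows of Mt2, Slc30a1 and Slc39a1, against 12.4% of all promoters with at least 1. The STAT element TTCNNNGAA stood once in 1 of the Slc39a10 windows, against 8.3% of all promoters. A match of letters does not show that a factor binds there.

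The arrays set the error of every value below. Levels are log2 signals minus the array's 75th percentile, so 0 stands for a probe at that percentile; levels of different probes cannot be set against each other. The 75th percentile itself was 455 to 527 on LPS+HF arrays, 282 to 286 on LPS arrays, 347 to 472 on HF arrays and 247 to 262 on control arrays. Between 48.4% and 55.6% of probes per array were well above background, and no spot was saturated. Control replicate 1 was uneven: repeated probes had a coefficient of variation of 48.9%, against 3.77% to 8.06% on the other 7 arrays. The scanner's quality report marked it and HF replicate 1 for evaluation. The grid of spots was marked as not good on control replicate 1 only. The SD over genes of the difference between replicate arrays was 0.34 in LPS+HF, 0.28 in LPS, 0.52 in HF and 0.99 in control. The study calls the arrays of a group biological replicates; whether they came from separate cultures was not given in the sources used here, so p-values measure the spread between these arrays. Each treatment filled its own rows or columns of the slide, so HF and the slide's row, and LPS and its column, cannot be told apart. Of 10 microglia and macrophage markers, 10 were well above background on each array of the LPS+HF, HF and control groups and 9 on both LPS arrays, all but Cx3cr1. None of the 5 fibroblast markers was, but 3 of 4 oligodendrocyte markers were in every group (Mbp, Mog and Sox10). The summed scaled signal of these 4 markers was 1.13 to 1.21 in LPS+HF, 1.58 to 1.69 in LPS, 1.21 to 1.65 in HF and 1.42 to 2.42 in control. Of 5 markers each, the endothelial list had Kdr and Pecam1, the neuron list Snap25, the lymphocyte list Cd3e and Cd79a, and the astrocyte list Aldh1l1 and Aqp4 well above background on both arrays of every group. The summed endothelial signal was 13.3 to 14.3 in LPS+HF, 18.7 to 19.5 in LPS, 13.4 to 16.9 in HF and 18.3 to 26.5 in control. The neuron list summed to 6.48 to 7.64 in LPS+HF, 9.49 to 10.2 in LPS, 7.27 to 7.68 in HF and 8.97 to 11.4 in control. The lymphocyte list summed to between 4.90 and 6.94 and the astrocyte list to between 0.274 and 0.568 over all arrays. The 10 microglia and macrophage markers summed to between 585 and 835. Sums of different lists add signals of different probes, so they cannot be set against each other either. The part of these lists in the results below was not tested. In bulk RNA, fewer cells of a kind and less RNA per cell cannot be told apart.

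**Figure D1:**
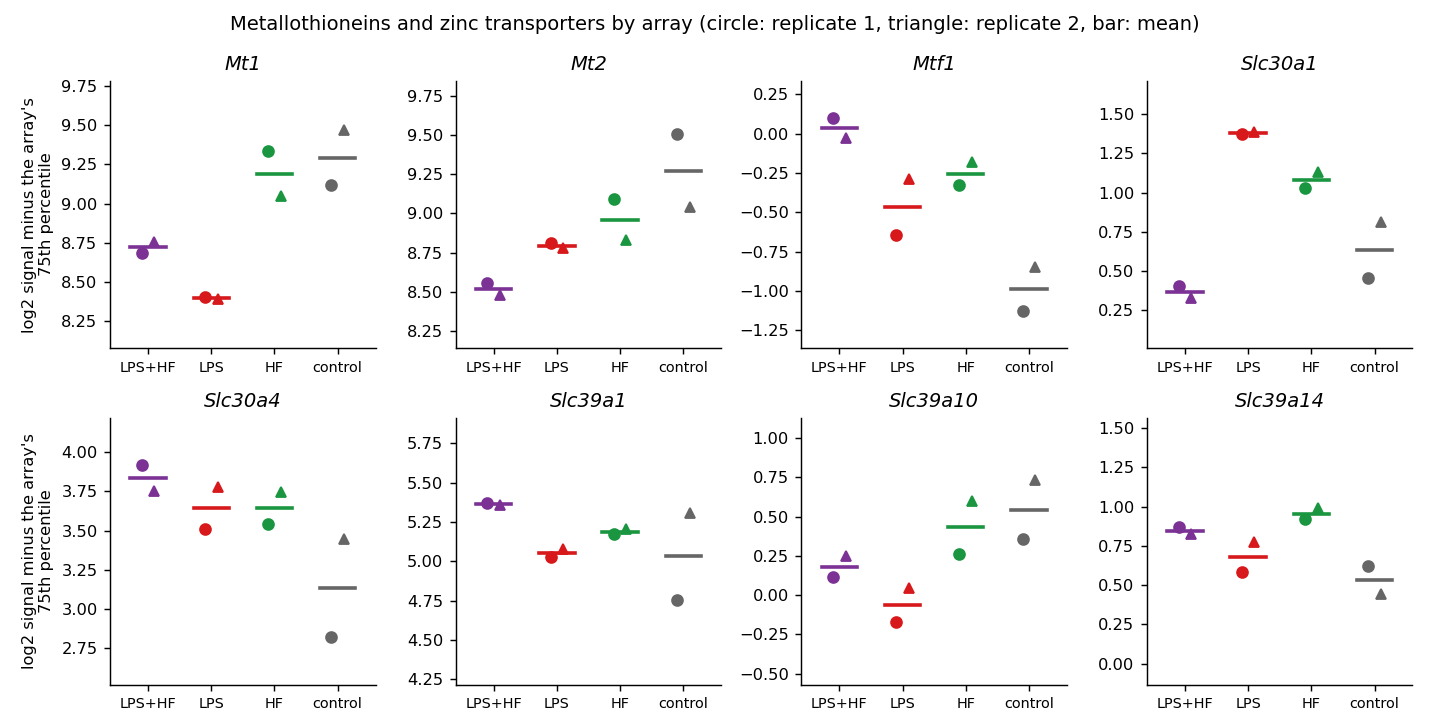
Level of the 8 genes on each array, as log2 signal minus the array's 75th percentile, with circles for replicate 1, triangles for replicate 2 and bars for group means; every panel spans the same height. Mt1 is lowest on the LPS arrays, and Slc30a1 is highest on the LPS arrays and lowest on the LPS+HF arrays.

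Without HF, LPS lowered Mt1 and raised Slc30a1, and the other 6 genes did not pass the test. Added to LPS, HF lowered Slc30a1, and the other 7 did not pass. HF against control, and LPS+HF against HF, gave 0 of the 8 in limma (3 and 2 had an unadjusted p under 0.05). The threshold was a Benjamini-Hochberg adjusted p under 0.05 in limma over all genes tested. Of all genes tested, 11.1% passed in LPS minus control (4.77% higher and 6.3% lower) and 6.14% in LPS+HF minus LPS (2.89% higher and 3.25% lower). Under quantile normalization the LPS minus control split was 1183 genes higher and 1070 lower, against 1071 and 1416 as reported, and with only the arrays compared 59 and 7. The share was 0.89% for HF minus control and 1.28% for LPS+HF minus HF. The median change of the 8 genes was 0.08 log2 in LPS minus control, where that of all genes was -0.08. It was 0.29 in HF minus control (all genes -0.07), 0.22 in LPS+HF minus LPS (all genes -0.07) and -0.18 in LPS+HF minus HF (all genes -0.08). These comparisons share arrays, so their values are not independent.

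**Figure D2:**
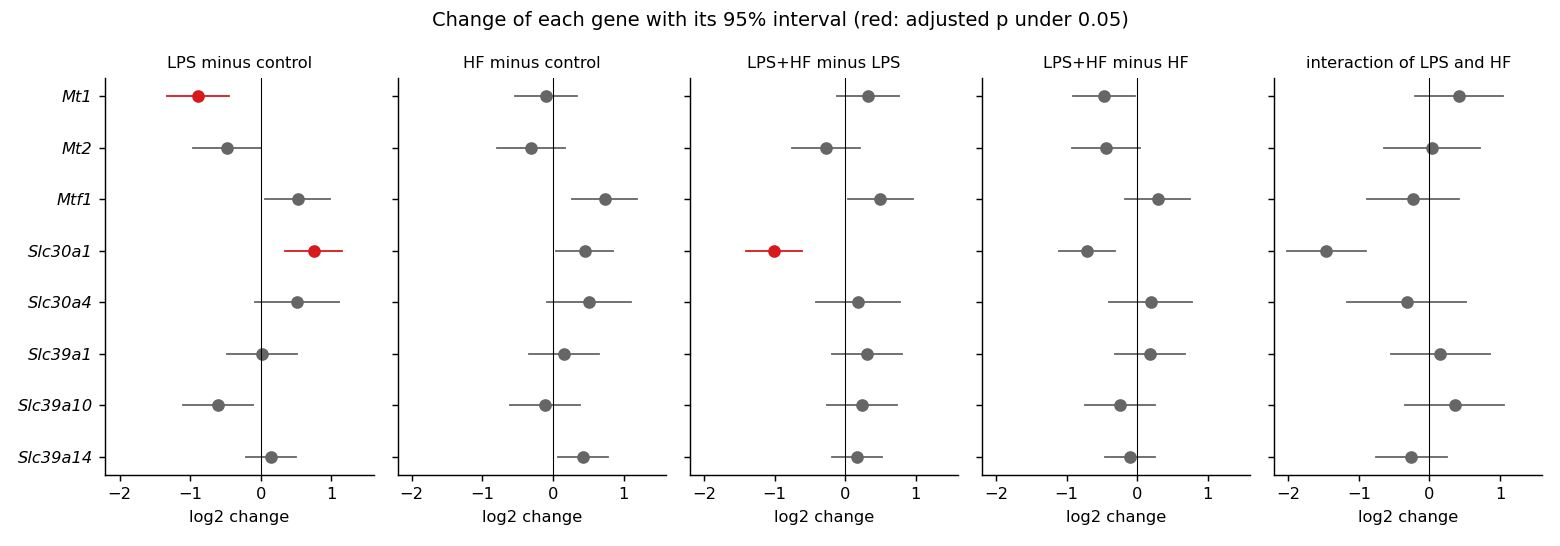
Log2 change of the 8 genes in each comparison, with 95% intervals; red marks an adjusted p under 0.05. In the first panel Mt1 is to the left of 0 and Slc30a1 to the right; in the third panel Slc30a1 is to the left.

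Mt1, by the probe used for the test (A_66_P111660), read 8.69 and 8.76 in LPS+HF cells, 8.40 and 8.39 in LPS cells, 9.34 and 9.05 in HF cells, and 9.12 and 9.47 in control cells. Both LPS arrays lay below every other array, the LPS+HF arrays lay between them and the rest, and the HF and control arrays overlapped. Mt1 was 1.86-fold lower in LPS than in control cells (log2 -0.89 ± 0.18 SE, 95% interval -1.33 to -0.45, 2 arrays per group, adjusted p = 0.032 in limma). A larger change was seen in 19.3% of the 22460 genes. In LPS+HF minus HF it was at -0.47 ± 0.18 log2 (adjusted p = 0.48), in LPS+HF minus LPS at 0.32 ± 0.18 (adjusted p = 0.34) and in HF minus control at -0.10 ± 0.18 (adjusted p = 0.76). The LPS response with HF minus that without was 0.42 ± 0.25 (adjusted p = 0.58). Without the scaling to the 75th percentile, the Mt1 signal was 217560 and 196540 units in LPS+HF, 95749 and 96301 in LPS, 224310 and 249880 in HF, and 137230 and 185150 in control, so the LPS arrays were the lowest on that scale too.

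The fall of Mt1 with LPS depended on the spread put into the test and on the probe. It was -1.07 without control replicate 1 and -0.72 without control replicate 2, and passed in both fits (adjusted p = 0.012 and 0.013). It did not pass without LPS replicate 1 or 2 (-0.90 and -0.89, adjusted p = 0.19 each), without either HF array (-0.89, adjusted p = 0.063) or with 1 LPS+HF array dropped (-0.89, adjusted p = 0.081). Under quantile normalization it was -0.46 (adjusted p = 0.18), where the median of all genes was 0.04 instead of -0.08 (and 0.04 instead of -0.07 in HF minus control). The second Mt1 probe (A_52_P423810, designed to a predicted transcript) read 2.41 and 2.29 in LPS+HF, 1.59 and 1.50 in LPS, 2.23 and 2.20 in HF, and 1.44 and 2.03 in control. Its control arrays thus straddled the LPS arrays, and its LPS minus control was -0.20 ± 0.22 log2 (adjusted p = 0.57 over all probes). Its LPS+HF minus LPS was 0.81 ± 0.22 (adjusted p = 0.087), larger than the 0.32 of the first probe and in the same direction. The mean over both probes was -0.54 in LPS minus control (adjusted p = 0.12).

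Mt2, the second of the broadly expressed metallothioneins, read 8.56 and 8.48 in LPS+HF cells, 8.81 and 8.78 in LPS cells, 9.09 and 8.83 in HF cells, and 9.50 and 9.04 in control cells. The groups stood in that order from low to high, and only the HF and control arrays overlapped. No comparison of Mt2 passed: LPS minus control was -0.48 ± 0.20 log2 (adjusted p = 0.17) and LPS+HF minus HF was -0.44 ± 0.20 (adjusted p = 0.60). LPS+HF minus LPS was -0.28 ± 0.20 (adjusted p = 0.46) and HF minus control -0.31 ± 0.20 (adjusted p = 0.39). Mt1 and Mt2 therefore lay on opposite sides of 0 in LPS+HF minus LPS, but neither value passed and the difference between the genes was not tested. Without the scaling, the Mt2 signal was 198580 and 162470 units in LPS+HF and 126930 and 125520 in LPS. The LPS+HF arrays thus lay above the LPS arrays on that scale, as for Mt1, and the opposite sides hold for scaled values only. Without control replicate 2, Mt2 passed in LPS minus control (-0.71, adjusted p = 0.012) and in HF minus control (-0.54, adjusted p = 0.032); control replicate 1 was then the only control array. With the normexp background correction, LPS minus control was -0.08 (adjusted p = 0.77) and HF minus control 0.11 (adjusted p = 0.70) for Mt2. The metallothioneins resemble each other in sequence, and cross-hybridisation between their probes was not tested.

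Mtf1, the zinc sensor, had 3 probes, and 1 of them (A_52_P55666) was well above background on no array. The probe used (A_52_P467266) read 0.10 and -0.03 in LPS+HF, -0.65 and -0.29 in LPS, -0.33 and -0.18 in HF, and -1.13 and -0.85 in control. All treated arrays lay above both control arrays, and both LPS+HF arrays lay above all others. Its changes did not pass: 0.73 ± 0.19 log2 in HF minus control (adjusted p = 0.15), 0.52 ± 0.19 in LPS minus control (adjusted p = 0.13) and 0.50 ± 0.19 in LPS+HF minus LPS (adjusted p = 0.18). In LPS+HF minus HF it was at 0.29 ± 0.19 (adjusted p = 0.80). Without control replicate 2, HF minus control was 0.87 and LPS minus control 0.66, with the uneven control replicate 1 as the only control array. The mean over both measured Mtf1 probes passed in LPS minus control (0.71, adjusted p = 0.025) and was at -0.17 in LPS+HF minus LPS (adjusted p = 0.49). With the normexp background correction the probe used was at -0.06 in LPS minus control (adjusted p = 0.88). The spatial correction removes local unevenness of each array. After it, the Mtf1 probe used passed in limma in HF minus control (0.69, adjusted p = 0.033) and LPS minus control (0.51, adjusted p = 0.035). It also passed in LPS+HF minus LPS (0.52, adjusted p = 0.034). Of all genes, 2232, 6261 and 6183 passed in these comparisons after the correction, against 200, 2487 and 1379 as reported.

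The second Mtf1 probe (A_55_P2069277) gave another order. It read -0.94 and -0.78 in LPS+HF, 0.01 and -0.04 in LPS, -1.10 and -0.99 in HF, and -0.68 and -1.17 in control, so the LPS arrays stood above all others. With each probe tested on its own, where 10.4% of 30345 probes passed in LPS minus control, the second Mtf1 probe was 0.91 ± 0.20 log2 higher in LPS than in control cells (adjusted p = 0.040). Its LPS+HF minus LPS was -0.85 ± 0.20 (adjusted p = 0.063; 5.99% of probes passed there), opposite in sign to the 0.50 of the probe used. Its HF minus control was -0.12 ± 0.20 log2 (adjusted p = 0.73 in limma over all probes), where the probe used was at 0.73 log2. Both probes match the same transcript, and no direction is given here for Mtf1 in HF minus control or in LPS+HF minus LPS.

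**Figure D3:**
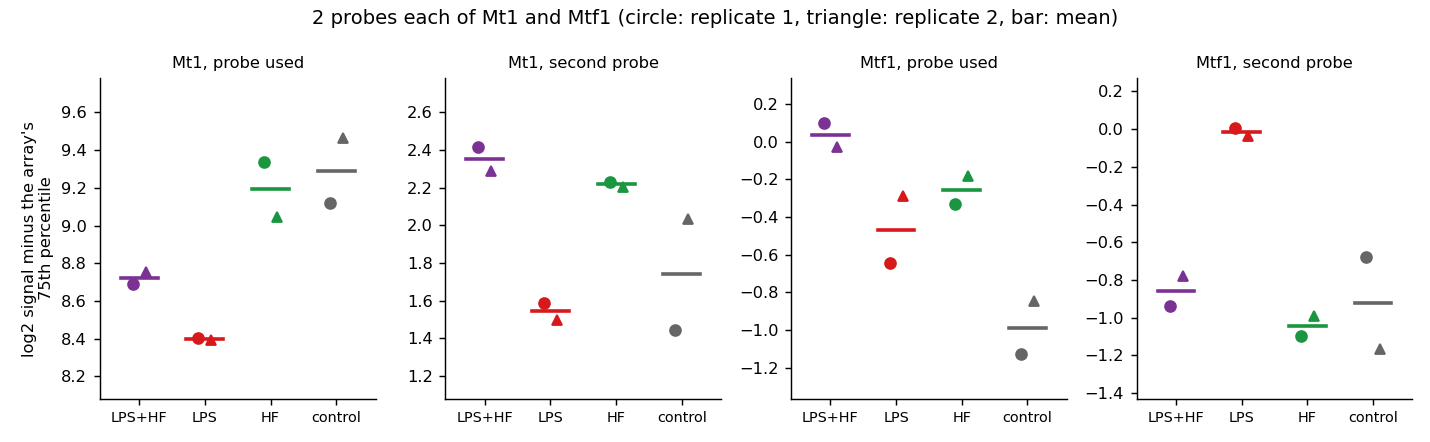
Log2 signal minus the array's 75th percentile on each array for the 2 measured probes of Mt1 and of Mtf1, with circles for replicate 1, triangles for replicate 2 and bars for group means. The Mtf1 probes put the LPS arrays in different places, below the LPS+HF arrays for the probe used and above them for the second.

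Slc30a1, which exports zinc across the surface membrane, had the largest changes with HF in LPS-treated cells among the 8 genes. It read 0.40 and 0.33 in LPS+HF cells, 1.37 and 1.39 in LPS cells, 1.03 and 1.13 in HF cells, and 0.45 and 0.81 in control cells. No 2 groups overlapped, and the order from high to low was LPS, HF, control and LPS+HF. Slc30a1 was 2.02-fold lower in LPS+HF than in LPS cells (log2 -1.01 ± 0.16 SE, 95% interval -1.41 to -0.61, adjusted p = 0.028 in limma), and 7.14% of all genes changed by more. It was 1.68-fold higher in LPS than in control cells (log2 0.75 ± 0.16, 95% interval 0.35 to 1.15, adjusted p = 0.040). HF minus control was 0.45 ± 0.16 (adjusted p = 0.23), and LPS+HF minus HF was -0.71 ± 0.16 (adjusted p = 0.16). Slc30a1 was thus above control in cells with either agent alone and below HF cells in cells with both. The LPS response with HF minus that without was -1.46 ± 0.23 log2 (95% interval -2.02 to -0.90), with an unadjusted p of 0.00072 in limma and an adjusted p of 0.14. Over all genes 12 (0.0534%) passed for this interaction, and 0 of the 8 genes, with 1 at an unadjusted p under 0.05.

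Without the scaling between arrays, the Slc30a1 signal was 698 and 572 units in LPS+HF, 731 and 749 in LPS, 709 and 1032 in HF, and 338 and 459 in control. The LPS+HF arrays lay below the LPS arrays there too, but the fall was smaller, since the LPS+HF arrays were brighter as a whole. With the normexp background correction the LPS+HF minus LPS value was -0.90 (adjusted p = 0.15) and LPS minus control was 0.07 (adjusted p = 0.85), where the median of all genes was -0.15 and -0.23; the rise of Slc30a1 with LPS was thus not seen under that correction. HF minus control was then -0.08 (adjusted p = 0.84).

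Slc30a1 passed in some left-out fits only. Its LPS+HF minus LPS value passed without either control array (-1.01, adjusted p = 0.0045), but not without LPS replicate 1 (-1.02, adjusted p = 0.21) or replicate 2 (adjusted p = 0.20). Nor did it pass when either HF array (-1.01, adjusted p = 0.074) or LPS+HF replicate 1 or 2 was left out (-1.05 and -0.97, adjusted p = 0.15 and 0.18). Its LPS minus control value passed without control replicate 1 or 2 (0.57 and 0.93, adjusted p = 0.024 and 0.0021). It did not pass without LPS replicate 1 or 2 (0.76 and 0.74, adjusted p = 0.22 each), either HF array (0.75, adjusted p = 0.089) or either LPS+HF array (0.75, adjusted p = 0.096). LPS+HF minus HF passed for Slc30a1 without either control array (-0.71, adjusted p = 0.022). Without control replicate 2, HF minus control was 0.63 and the interaction -1.64. The uneven control replicate 1 was then the only control array. After the spatial correction the interaction of Slc30a1 passed in limma at -1.18 (adjusted p = 0.021). Of all genes, 651 passed there, against 12 as reported.

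**Figure D4:**
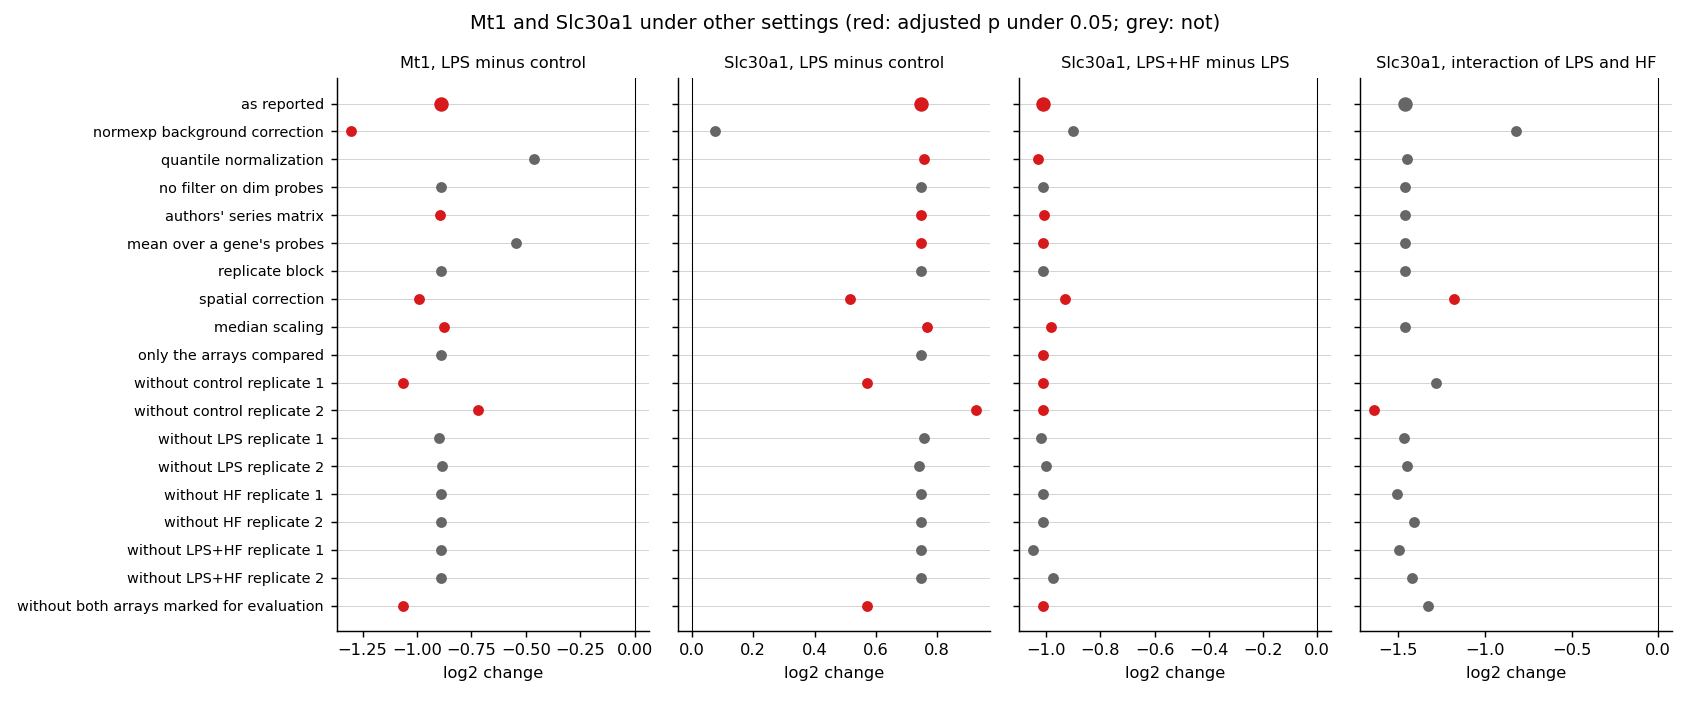
Log2 change of Mt1 in LPS minus control and of Slc30a1 in LPS minus control, LPS+HF minus LPS and the interaction, as reported (top) and under each other setting; red marks an adjusted p under 0.05 and the horizontal scales differ between panels. All points of a panel lie on 1 side of 0, and the rise of Slc30a1 with LPS is close to 0 with the normexp background correction.

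Slc30a4, which loads zinc into vesicles and is known for zinc secretion into milk in mice, read 3.92 and 3.75 in LPS+HF, 3.51 and 3.78 in LPS, 3.54 and 3.75 in HF, and 2.82 and 3.45 in control. The treated groups were above both control arrays; LPS+HF and LPS arrays overlapped, as did LPS and HF arrays. LPS minus control was 0.51 ± 0.24 log2 (adjusted p = 0.22) and HF minus control 0.51 ± 0.24 (adjusted p = 0.30), and neither passed. LPS+HF minus LPS was 0.19 ± 0.24 (adjusted p = 0.71), with a 95% interval from -0.41 to 0.78. With control replicate 2 left out, Slc30a4 passed in LPS minus control (0.82, adjusted p = 0.013) and HF minus control (0.82, adjusted p = 0.016); that fit rests on control replicate 1, the lower of the control arrays. With the normexp background correction Slc30a4 was at -0.09 in LPS minus control (adjusted p = 0.81) and at 0.01 in HF minus control (adjusted p = 0.98).

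The importers did not pass in any comparison. Slc39a1, a surface zinc importer found in most cells, read 5.37 and 5.36 in LPS+HF, 5.03 and 5.08 in LPS, 5.17 and 5.21 in HF, and 4.75 and 5.31 in control. Its LPS+HF arrays were the highest of the 8, and its control arrays spanned all LPS and HF arrays. LPS+HF minus LPS was 0.31 ± 0.20 log2 (adjusted p = 0.42) for Slc39a1, and 0.31 with an adjusted p of 0.043 without either control array. HF minus control was 0.16 ± 0.20 (adjusted p = 0.66 in limma). It was 0.43 without control replicate 2, where the uneven control replicate 1 was the only control array. LPS minus control was 0.02 ± 0.20 (adjusted p = 0.95, 95% interval -0.47 to 0.51) and LPS+HF minus HF was 0.18 ± 0.20 (adjusted p = 0.94). With the normexp background correction Slc39a1 was at -0.61 in LPS minus control (adjusted p = 0.23) and at -0.32 in HF minus control (adjusted p = 0.43).

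Slc39a10, an importer of the surface membrane, read 0.11 and 0.25 in LPS+HF cells, -0.17 and 0.05 in LPS cells, 0.26 and 0.60 in HF cells, and 0.36 and 0.73 in control cells. The LPS arrays were the lowest, as for Mt1, and the HF and control arrays overlapped. LPS minus control was -0.61 ± 0.20 log2 (adjusted p = 0.11), LPS+HF minus LPS 0.24 ± 0.20 (adjusted p = 0.53), LPS+HF minus HF -0.25 ± 0.20 (adjusted p = 0.87) and HF minus control -0.11 ± 0.20 (adjusted p = 0.76). In LPS minus control Slc39a10 was at -0.79 without control replicate 1. It passed in limma after the spatial correction (-0.91, adjusted p = 0.0077), where 6261 of all genes passed, against 2487 as reported.

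Slc39a14, an importer of zinc and manganese that is known to rise in liver during inflammation, read 0.87 and 0.83 in LPS+HF cells, 0.58 and 0.77 in LPS cells, 0.92 and 0.99 in HF cells, and 0.62 and 0.44 in control cells. The arrays with HF lay above all arrays without it, and the LPS and control arrays overlapped. HF minus control was 0.42 ± 0.15 log2 (adjusted p = 0.21 in limma). After the spatial correction it was 0.52 (adjusted p = 0.035), where 2232 of all genes passed, against 200 as reported. LPS+HF minus LPS was 0.17 ± 0.15 (adjusted p = 0.55), LPS minus control 0.15 ± 0.15 (adjusted p = 0.51, 95% interval -0.21 to 0.50) and LPS+HF minus HF -0.11 ± 0.15 (adjusted p = 0.95). With the normexp background correction LPS minus control was -0.17 (adjusted p = 0.66) for Slc39a14.

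Separation of arrays was common among all genes. The 2 groups did not overlap for 6 of the 8 genes in LPS minus control, where they did not for 57.1% of all genes tested. The counts were 4 of 8 in HF minus control (46.2% of all genes), 7 of 8 in LPS+HF minus LPS (73.9%) and 8 of 8 in LPS+HF minus HF (53.2%). With 2 arrays a group, separation alone therefore says little about a gene.

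The other metallothionein and zinc transporter genes held larger rises than the 8. Of 22 further genes listed, 15 were well above background in at least 1 group and tested, and 7 were not (Slc30a3, Slc30a8, Slc30a10, Slc39a5, Slc39a8, Slc39a12 and Tmem163). In LPS minus control, where 4.77% of all genes passed as higher and 6.3% as lower, 2 of the 15 rose, 0 fell and 13 did not pass. In LPS+HF minus HF, where 0.904% of all genes passed as higher, the counts were the same. In HF minus control (0.89% of all genes) and LPS+HF minus LPS (6.14%) 0 of 15 passed in limma. The median change of the 15 was 0.16 log2 for LPS against control (all genes -0.08) and 0.15 for HF against control (all genes -0.07). It was 0.01 in LPS+HF minus LPS (all genes -0.07) and -0.03 in LPS+HF minus HF (all genes -0.08).

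Slc39a4, a zinc importer known for the uptake of dietary zinc in the gut, was among the 2 that rose. It read 2.76 and 2.48 in LPS+HF, 2.27 and 2.39 in LPS, -0.76 and -0.36 in HF, and 0.04 and 0.05 in control. The arrays with LPS were far above those without. Slc39a4 was 4.87-fold higher in LPS than in control cells (log2 2.28 ± 0.19, adjusted p = 0.0030) and 9.09-fold higher in LPS+HF than in HF cells (log2 3.18 ± 0.19, adjusted p = 0.0021). The second value passed in 18 of 18 alternative settings and the first in 17 of 18. The interaction was 0.90 ± 0.27 (adjusted p = 0.31).

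Slc30a2, a vesicular zinc exporter, was the other. It read -1.67 and -1.61 in LPS+HF, -1.69 and -1.60 in LPS, -2.65 and -2.73 in HF, and -2.96 and -2.99 in control. It was 2.51-fold higher in LPS than in control cells (log2 1.33 ± 0.13, adjusted p = 0.0045) and 2.07-fold higher in LPS+HF than in HF cells (log2 1.05 ± 0.13, adjusted p = 0.021). These passed in 14 of 18 and 8 of 18 alternative settings. LPS+HF minus LPS was 0.01 ± 0.13 for Slc30a2 (95% interval -0.30 to 0.32).

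**Figure D5:**
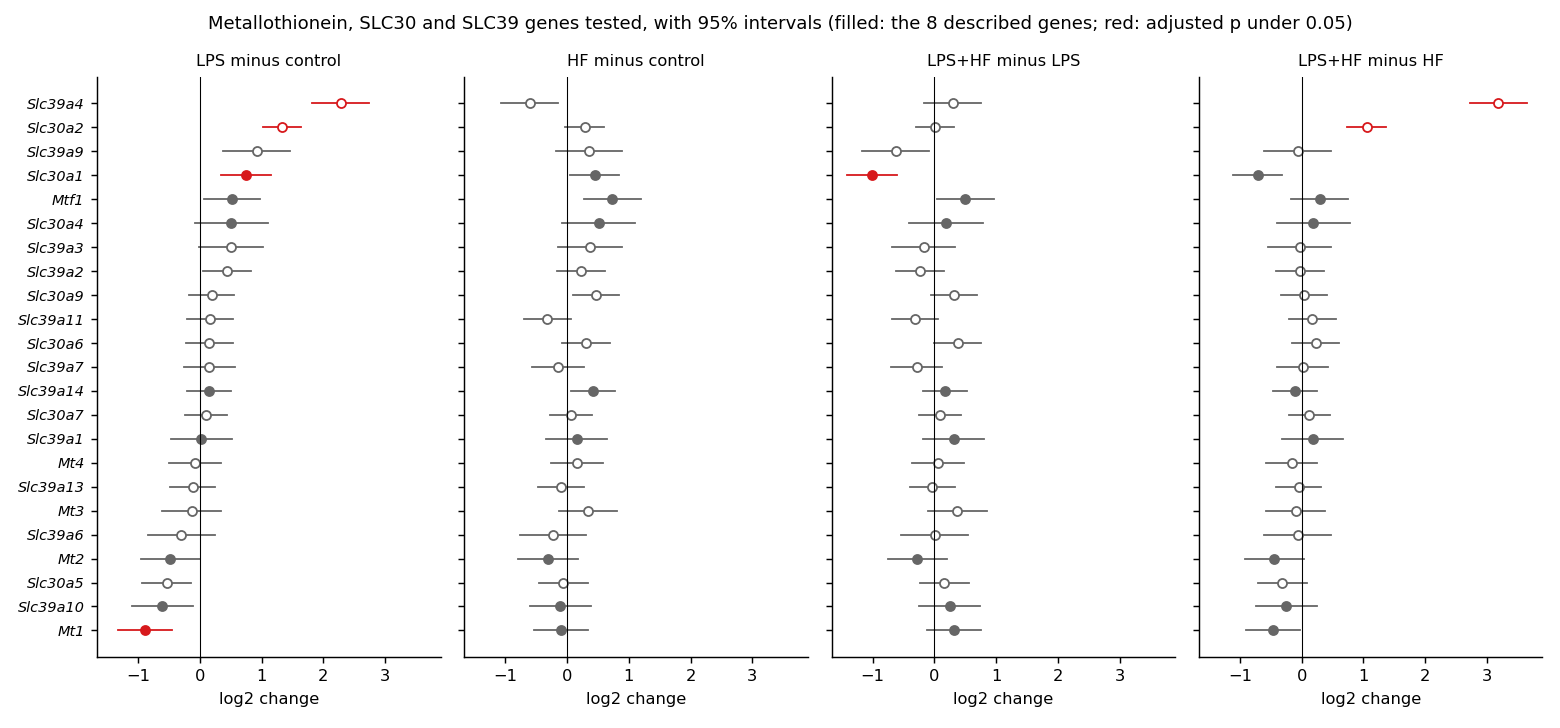
Log2 change with its 95% interval of the 8 genes (filled) and of 15 further metallothionein, SLC30 and SLC39 genes (open) in 4 comparisons; red marks an adjusted p under 0.05. Slc39a4 and Slc30a2 stand to the right in both comparisons with against without LPS.

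The genes most like each of the 8 over the 8 arrays were sought among 3658 tested genes with an SD of at least 0.5 log2, by Pearson's r. The arrays share groups, slide and scan, so these are descriptions without a test. For Mt1 they were Cdkn1c (r = 0.964), a cyclin-dependent kinase inhibitor, Fes (0.962), a tyrosine kinase of myeloid cells, and Nab2 (0.960), a corepressor of EGR factors. For Mt2 they were Kcnh2 (0.978), Defa23 (0.974) and Atp8a2 (0.967). For Mtf1, by the probe used, they were Camk2n2 (0.967), Mfsd6 (0.960) and Avl9 (0.951). Over the 8 arrays Slc30a1 was least well matched, with Masp2 (0.901), Ctnnd2 (0.887) and Fam189a2 (0.883). Without the uneven control replicate 1 these were 0.883, 0.875 and 0.913. For Slc30a4 they were Ptpn9 (0.979), Cep76 (0.970) and Sp1 (0.969), and for Slc39a1 Apol7b (0.963), Zdhhc20 (0.948) and Nrf1 (0.945). Without control replicate 1 they were lower, at 0.923, 0.874 and 0.902 for Slc30a4 and 0.945, 0.853 and 0.851 for Slc39a1. Those of Mt1 hardly moved (0.963, 0.960 and 0.959). For Slc39a10 they were Ccdc189 (0.908), Prkar1b (0.908) and Nab2 (0.905), and for Slc39a14 Hcn3 (0.934), Zdhhc2 (0.928) and Efhd1 (0.910).

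Among the 8 genes, each by the probe used for the test, Mtf1 and Slc30a4 varied most alike over the 8 arrays (r = 0.913, and 0.909 without control replicate 1), followed by Mt1 and Slc39a10 (r = 0.838 with and without it). The second Mtf1 probe, which orders the arrays differently, was not part of this. Mt2 and Slc30a4 ran opposite to each other (r = -0.909, and -0.771 without control replicate 1). Slc30a4 and Slc39a1 had r = 0.801 over 8 arrays and 0.348 over the 7 without control replicate 1, so that likeness rests on the uneven array. Slc30a1 and Slc39a1 had r = -0.226 over 8 arrays and -0.951 over those 7. Mt1 and Mt2, neighbours on the chromosome, had r = 0.567, and 0.641 without that array.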

How the data were processed

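Messenger RNA of BV-2 cells was measured in 4 groups of 2 samples, with 1 Agilent single-colour array a sample, all on 1 slide read in 1 scan. The intensity values, per the file headers, were made by Agilent Feature Extraction 11.5.1.1, which subtracted the background and corrected trends within each array, and did not scale arrays to each other. The authors' deposited matrix holds log2 values with the 75th percentile of the array and then the median of the probe subtracted; recomputed values differed by a median of at most 0.003 log2 per array.

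Spots not marked as outliers were averaged per probe on the log2 scale, and the 75th percentile of the array was subtracted. Kept were the 30345 probes that 1 or more groups had well above background on both arrays, and the probe with the highest mean stood for a gene (22460 genes). Symbols came from RefSeq transcript names for 28026 of 55681 probes. Group means were fitted over all 8 arrays with limma 3.58.1 (R 4.3.3; 4 residual and 2.04 prior degrees of freedom), two-sided, with Benjamini-Hochberg adjustment at 0.05. There were 5 comparisons, including the interaction of LPS and HF. The SE pools the spread of all groups. The fit was also run on simulated data, with less spread than these arrays have and changes larger than most of those of the 8 genes. It does not show how well changes of their size are found.

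The 8 genes and all lists were chosen with earlier results of these data known. Named were the 8 genes, further zinc genes that passed, and the 3 most similar genes. From each other list, up to 4 passed genes per comparison were taken by size. Not all of those are described, and some left out changed by more than genes that are described. The oligodendrocyte list was used without 1 marker, which is not reported here. Chosen after seeing the data were median scaling, leaving out both marked arrays, and each probe on its own. The spatial correction removed local deviation in windows of 30 rows and 15 columns, and masked spots dimmed over 4-fold (12.3% on control replicate 1, none of the 8 genes). Normexp (offset 50) used median pixel signals, which lack the scanner's trend correction. "At least" folds are taken against the lowest signal well above background. Slide and scan could not be tested as blocks, since there was 1 of each. Python 3.11.15, numpy 2.4.6, pandas 2.3.3 and matplotlib 3.10.9 were used.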

Additional observations from a re-analysis of the deposited data

Results flagged for a closer look

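For Slc30a1, cells with LPS lay on opposite sides of cells without it, with and without HF. With HF, both LPS+HF arrays lay below both HF arrays, and without HF, both LPS arrays lay above both control arrays. The difference between these responses was -1.46 ± 0.23 log2 (adjusted p = 0.14 in limma over all genes), so it did not pass. Over the alternative settings it ranged from -1.64 to -0.82, with adjusted p up to 0.89 in limma, and it passed in 2 of 17. These were the spatial correction, where 651 of all genes passed against 12 as reported, and the fit without control replicate 2. In that fit the uneven control replicate 1 was the only control array.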

How the results depend on the processing

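All values are limited by 2 arrays a group and by the uneven control replicate 1, whose spread enters every SE. The 74 values followed include values that passed and values that did not, and some belong to genes not described. Of their 1324 alternative values, 1041 kept direction and side of the threshold and 222 no longer passed. Only values that had passed could be among the 222, so the 1041 do not measure how stable the passed results are. A further 26 newly passed, 35 that had not passed changed sign, and 0 that had passed reversed. The counts below run in the order LPS against control, HF against control, LPS+HF against LPS, LPS+HF against HF, and interaction. As reported, 2487, 200, 1379, 287 and 12 genes passed. Normexp gave 847, 10, 203, 90 and 0, no filter on dim probes 823, 13, 170, 126 and 0, and the spatial correction 6261, 2232, 6183, 1092 and 651. Only the arrays compared gave 66, 0 and 7390 in the first 3 comparisons. The 0 counts in limma stood beside 1285, 2455 and 1710 genes at an unadjusted p under 0.05 (interaction with normexp, interaction without filter, HF minus control with only the arrays compared). Quantile normalization gave 5 for the interaction, and in HF minus control 28.4% of passed genes were higher, against 16% as reported. Without both marked arrays the counts were 4853, 7390, 453 and 34, HF minus control aside. Leaving out 1 array gave 169 to 11819, 8 to 10156, 0 to 6547, 56 to 885 and 0 to 7923 genes, the highest values being those without control replicate 2 (for LPS+HF minus LPS and LPS+HF minus HF, without either control array).

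Of the 8 genes 2, 0, 1, 0 and 0 passed. In LPS minus control 1 passed with normexp and with quantile normalization, and 0 without the filter or with only the arrays compared. In LPS+HF minus LPS 0 passed with normexp or without the filter, and 2 with only the arrays compared or without both marked arrays. After the spatial correction 4, 2, 3, 1 and 1 passed. Leaving out 1 array gave 0 to 5, 0 to 5, 0 to 2, 0 to 1 and 0 to 1. The cause of these changes was not tested.

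Deviations of same-numbered arrays correlated between -0.08 and 0.25, with the highest value between control and HF. Whether same-numbered samples shared a culture or a day was not given. These correlations cannot settle it, since faults of single arrays enter them too. With the replicate block, 1681, 46, 586, 198 and 0 genes passed (2351 at an unadjusted p under 0.05 for the interaction), and 0 of the 8 genes in every comparison.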

Other observations

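Of 8 S100 genes, a family that includes zinc-sequestering members, 6 were tested. In LPS minus control, where 4.77% of all genes passed as higher and 6.3% as lower, 3 of the 6 fell, 0 rose and 3 did not pass. The median was -1.56 log2 (all genes -0.08). It draws on S100a1, which did not pass (-1.82 ± 0.92). S100a1 read 7.14 on the uneven control replicate 1 and 4.01 on control replicate 2, against 3.81 and 3.69 in LPS. S100a4 fell by 2.56 ± 0.18 log2 (adjusted p = 0.0020), S100a6 fell by 2.16 ± 0.22 (adjusted p = 0.0050) and S100a10 fell by 1.30 ± 0.20 (adjusted p = 0.016). They passed in 17, 15 and 14 of 18 alternative settings. In LPS+HF minus LPS, where 3.25% of all genes passed as lower, 1 of the 6 fell, 0 rose and 5 did not pass. The median of the 6 was 0.02 log2 there (all genes -0.07). The gene that fell was S100a8, a subunit of the zinc-binding calprotectin, by 1.19 ± 0.24 log2 (adjusted p = 0.044 in limma, passed in 8 of 18 settings). In HF minus control, where 0.89% of all genes passed, 1 of the 6 fell, 0 rose and 5 did not pass. S100a6 fell by 1.54 ± 0.22 in HF minus control (adjusted p = 0.047), which passed in 4 of 18 settings and in 1 of the 8 fits without 1 array, with adjusted p up to 0.39.

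Of 15 copper handling genes tested, a list that also holds Mt1 and Mt2, 1 rose and 1 fell in LPS minus control, a share near the 11.1% of all genes. The gene that rose was Slc31a2, a copper transporter of endosomes, at 1.83 ± 0.16 log2 (adjusted p = 0.0036, passed in 15 of 18 settings), and the one that fell was Mt1. Slc31a2 was also higher in LPS+HF minus HF (1.43 ± 0.16, adjusted p = 0.016, passed in 10 of 18).

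Other lists hold genes of signals known to act on metallothionein genes, and their counts in LPS minus control stand beside the same 4.77% of all genes higher and 6.3% lower. Of 8 oxidative and metal stress genes tested, 5 rose and 1 fell. Slc7a11, which imports cystine, rose by 3.90 ± 0.17 log2 (adjusted p = 0.00043), and Hmox1, a haem-degrading enzyme, by 1.82 ± 0.17 (adjusted p = 0.0042). They passed in 18 and 15 of 18 settings. Of 13 genes of the interleukin 6 and STAT3 list, 5 rose and 1 fell. Il6 rose at least 56.4-fold, a bound because neither control array was well above background (adjusted p = 0.00015, passed in 18 of 18), and Il6ra, its receptor, fell by 1.44 ± 0.29 log2 (adjusted p = 0.031, passed in 9 of 18). Of 10 glucocorticoid response genes, 1 rose and 3 fell. Sgk1, a kinase, rose by 0.98 ± 0.20 (adjusted p = 0.034, passed in 8 of 18). Cdkn1c fell by 1.68 ± 0.26 (adjusted p = 0.016, passed in 14), Zbtb16, a transcription factor, fell by 0.92 ± 0.16 (adjusted p = 0.021, passed in 9) and Klf9, another, fell by 0.83 ± 0.18 (adjusted p = 0.041, passed in 8).

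In LPS+HF minus LPS, 2.89% of all genes passed as higher and 3.25% as lower. Of the 8 oxidative and metal stress genes 1 rose and 1 fell: Dnajb1, a heat shock co-chaperone, rose by 1.06 ± 0.17 log2 (adjusted p = 0.029, passed in 10 of 18) and Hmox1 fell by 1.71 ± 0.17 (adjusted p = 0.011, passed in 13). Of the 13 interleukin 6 and STAT3 genes 1 rose and 1 fell: Cebpd, a transcription factor, rose by 0.64 ± 0.13 (adjusted p = 0.048, passed in 8) and Il6 fell by 3.01 ± 0.22 (adjusted p = 0.0081, passed in 15). Of the 10 glucocorticoid response genes 0 rose and 2 fell: Tsc22d3, a leucine zipper protein, fell by 1.52 ± 0.16 (adjusted p = 0.012, passed in 12) and Sgk1 fell by 1.29 ± 0.20 (adjusted p = 0.025, passed in 10). Without 1 array, Sgk1, Dnajb1 and Cebpd each passed in 2 of 8 fits. The Cebpd spot was masked on control replicate 1. Every direction given here was the same in 18 of 18 alternative settings. Settings that dropped only arrays outside a comparison, or added the replicate block, could not change its log2 value. Agreement of direction in those settings was thus fixed in advance.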
